A study of Mus musculus with 8 samples.

Results

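Keratins are the intermediate filament proteins of epithelial cells, and 8 of them are described here in the lactating mammary gland with and without the transcription factor Th-POK. Of these, 4 are typical of the luminal layer (Krt7, Krt8, Krt18 and Krt19) and 4 of the basal layer (Krt5, Krt14, Krt15 and Krt17). They were chosen by name, and a probe was assigned to them through its RefSeq accession. They are 8 of the 18749 genes that the array probes could be matched to, with 10 probes among 27479 matched probes.

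RNA of whole glands was measured on 8 one-colour Agilent arrays, of which 4 carried glands of wild-type mice (WT) and 4 those of Th-POK knockout mice (KO), all taken on day 1 of lactation. Both genotypes were females of C57/Bl6 background. Th-POK is encoded by Zbtb7b, and nothing in the labels or methods limits its loss in the KO mice to the gland. The methods call the females age matched. The 4 samples of each genotype are biological replicates, numbered 1 to 4, and the sources used here do not say whether a sample is 1 dam or a pool. The WT arrays shared 1 slide and the KO arrays another 1, and so genotype and slide cannot be told apart in any difference given here.

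Keratin filaments are built from pairs of a type II and a type I chain. Milk is made by luminal cells, which pair Krt8 with Krt18 and can add Krt7 and Krt19, as simple epithelia do. The contractile myoepithelial cells beneath them, like the basal layer of skin and other stratified epithelia, pair Krt5 with Krt14. Krt15 and Krt17 are further type I chains, known from basal keratinocytes, hair follicles and, for Krt17, from epithelium under stress. In this study keratin 8 served as a marker of luminal cells, in stainings and by RT-qPCR, and keratin 14 as a marker of sorted basal cells by RT-qPCR.

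On each array 66.8% to 75.3% of probes were well above background and no spot was saturated, and the 10 keratin probes were well above background throughout. Zbtb7b checked the labels. Its log2 signal was 9.90, 10.42, 10.13 and 10.23 in WT1 to WT4, and its probe was not well above background on any KO array, at least 81.5-fold lower (adjusted p = 5.70e-09 by limma with Benjamini-Hochberg adjustment). Values are log2 of the background-subtracted probe signal after quantile normalization. A signal depends on the probe as well as on the RNA, so levels are compared between arrays and never between genes, and 1 unit of log2 is a doubling.

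The 4 luminal keratins all had a higher mean in KO glands and the 4 basal keratins all had a lower one. Of the luminal keratins Krt18 rose, by 0.67 on the log2 scale, and of the basal keratins Krt15 fell by 2.71 and Krt17 fell by 1.22. The other 5, among them the basal pair Krt5 and Krt14, did not pass the test. Thus 3 of 8 keratins had an adjusted p under 0.05 by limma, against 16.5% of the 14135 genes tested (7.53% higher and 8.94% lower). The arrays of the genotypes did not overlap in 2 of the 8, against 24% of all genes. The median difference between KO and WT was 0.57 over the luminal and -0.74 over the basal keratins, and -0.02 over all genes tested. Set against the WT array of the same replicate number, the KO array was higher in 4 of 4 pairs for Krt7, Krt8 and Krt18 and in 3 of 4 for Krt19, and lower in 4 of 4 for Krt5, Krt15 and Krt17 and in 3 of 4 for Krt14. What a replicate number shares is not given in the sources used here, and such pairs were not counted over all genes. In whole-gland RNA, a larger share of a cell type and more RNA of the gene in each cell cannot be told apart.

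**Figure D1:**
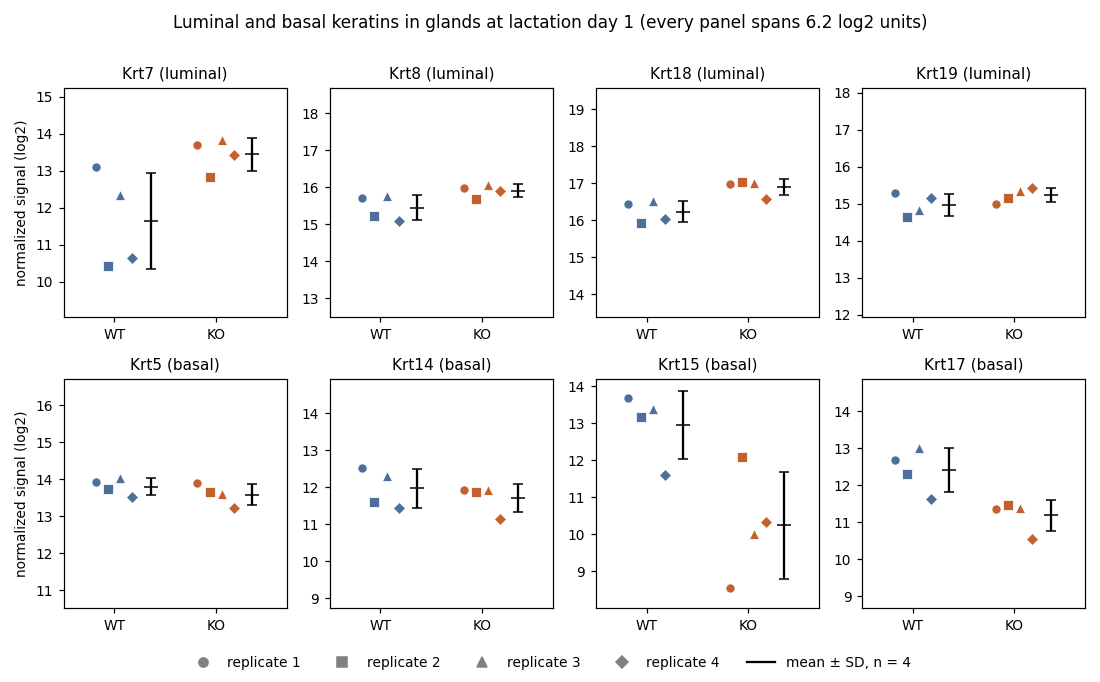
Log2 normalized signal (y axis) of the 8 keratins on the 4 WT and 4 KO arrays, 1 point per array with its replicate number as the symbol, and mean ± SD (n = 4) as the bar. Every panel spans the same number of log2 units, so the drop of Krt15 (mean 12.96 in WT and 10.24 in KO) can be set against the near overlap of Krt5 (13.80 and 13.59), while the axes start at different levels.

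Krt8 and Krt18, the pair that forms the filament of secretory cells, lie next to each other on chromosome 15 with no other protein-coding gene between them, on opposite strands. In WT1 to WT4 the log2 signal of Krt8 was 15.71, 15.22, 15.76 and 15.10, and in KO1 to KO4 it was 15.99, 15.68, 16.07 and 15.90. WT1 and WT3 lay above KO2, so the genotypes overlapped. The means were 15.45 ± 0.33 and 15.91 ± 0.17 (SD, n = 4), and the difference of 0.46 (SE 0.18, 95% interval 0.06 to 0.86) had an adjusted p of 0.0988 by limma. The second probe of Krt8 gave a difference of 0.53.

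For Krt18 the log2 signal was 16.44, 15.92, 16.51 and 16.04 in WT1 to WT4 and 16.99, 17.02, 17.00 and 16.58 in KO1 to KO4. Every KO array lay above every WT array, though KO4 only just, and 11.1% of all genes tested had all KO arrays above all WT arrays. The mean rose from 16.23 ± 0.29 to 16.90 ± 0.21 (SD, n = 4), which is 1.59-fold (log2 difference 0.67, SE 0.17, adjusted p = 0.0349 by limma). The call did not survive leaving out WT2, WT4, KO1, KO2 or KO3 (adjusted p 0.0694 to 0.0952), and it was also lost with arrays scaled to their 75th percentile (0.0627), with the authors' table (0.0619) and with no filter on dim probes (0.0519).

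The ratio of the pair did not pass its test. The signal of Krt8 relative to Krt18 was lower in KO glands by 0.21 (SE 0.15), with values of -0.15 to 0.08 in WT and -0.56 to 0.11 in KO when each gene is set to 0 at its WT mean. That difference had p = 0.286 in an exact two-sided permutation test over the 70 relabelings of the arrays, whose smallest possible p is 0.0286, and 0.381 after adjustment over the 4 ratios tested. The lowest of the KO values was KO2, the array in which Krt8 was lowest and Krt18 highest.

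Krt7, the type II chain of ductal and other simple epithelia, had the largest mean difference of the luminal keratins and the widest spread. Its log2 signal was 13.10, 10.44, 12.36 and 10.65 in WT1 to WT4 and 13.69, 12.83, 13.84 and 13.44 in KO1 to KO4. The WT arrays fell into a high pair, WT1 and WT3, and a low pair, WT2 and WT4, and WT1 lay above KO2, so the genotypes overlapped. The means were 11.64 ± 1.30 and 13.45 ± 0.44 (SD, n = 4), and the difference of 1.81 (SE 0.58, 95% interval 0.49 to 3.14) had an adjusted p of 0.0627 by limma. The second probe of Krt7 had a difference of 1.58 and the same high and low WT arrays. With replicate numbers as a block in the fit, the adjusted p of Krt7 was 0.0288, and without WT1 it was 0.0195 with a difference of 2.30. Without any other array it was 0.0812 to 0.150 by limma, and with all arrays it was 0.128 by the methods' t-test.

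Krt19, a type I chain without the tail domain of other keratins, had log2 signals of 15.28, 14.63, 14.82 and 15.16 in WT1 to WT4 and of 15.00, 15.16, 15.35 and 15.43 in KO1 to KO4. The highest WT array lay above 2 of the KO arrays. The difference was 0.26 (SE 0.17, 95% interval -0.13 to 0.65, adjusted p = 0.297 by limma). Relative to Krt19, Krt7 was higher in KO glands by 1.55 (SE 0.63, exact permutation p = 0.0571, 0.114 after adjustment), with WT arrays from -1.17 to 1.15 and KO arrays from 1.01 to 2.03.

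The promoters of the luminal pair and of Krt7 are shown because these 3 genes had the largest luminal differences, and that of Krt5 because it is the type II chain of the basal pair. Each run is the 200 bases before the start of the gene on its own strand, from RefSeq on GRCm38.p6, a different build from the mm9 named in the array headers. The table used held entries for 5 of the 8 keratins, and that of Krt14 was left out because its start lies inside the gene as drawn in the gene table. Capitals mark the GC box GGGCGG on either strand and the TATA-like letters ATAAAA on the strand of the gene. The windows are chr15:101412203-101412402 on the plus strand for Krt7, chr15:102004343-102004542 on the minus strand for Krt8, chr15:102028016-102028215 on the plus strand for Krt18 and chr15:101712906-101713105 on the minus strand for Krt5.
Krt7: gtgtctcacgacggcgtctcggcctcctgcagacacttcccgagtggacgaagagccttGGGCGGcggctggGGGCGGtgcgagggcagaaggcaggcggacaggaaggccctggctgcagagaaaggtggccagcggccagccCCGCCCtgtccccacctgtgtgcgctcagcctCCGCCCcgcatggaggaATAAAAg
Krt8: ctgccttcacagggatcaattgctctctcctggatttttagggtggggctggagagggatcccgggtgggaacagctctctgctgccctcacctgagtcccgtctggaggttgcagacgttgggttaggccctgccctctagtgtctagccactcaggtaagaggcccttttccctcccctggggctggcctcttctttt
Krt18: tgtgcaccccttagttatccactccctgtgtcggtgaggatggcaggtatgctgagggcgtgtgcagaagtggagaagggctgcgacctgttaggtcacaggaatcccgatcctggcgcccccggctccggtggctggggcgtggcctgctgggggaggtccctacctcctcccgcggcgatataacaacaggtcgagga
Krt5: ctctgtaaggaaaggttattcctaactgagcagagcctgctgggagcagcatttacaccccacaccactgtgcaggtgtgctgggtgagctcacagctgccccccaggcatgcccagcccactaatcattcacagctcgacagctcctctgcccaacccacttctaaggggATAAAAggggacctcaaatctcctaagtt

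The window of Krt7 held 4 GC boxes and the TATA-like letters 7 bases before the start, and that of Krt5 held the same letters 29 bases before the start and no GC box. Neither motif was found in the windows of Krt8 and Krt18, and TATAAA and the AP-1 letters TGANTCA (both strands) were in none of the 4. Among 32851 RefSeq promoter windows of this length, 31% held a GC box, 8.07% ATAAAA, 6.27% TATAAA and 5.48% TGANTCA. G and C made up 69% of the Krt7 window, 59% of that of Krt8, 63.5% of that of Krt18 and 54.5% of that of Krt5, against a median of 53% over all windows. These are matches of letters and not tested sites.

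Among the basal keratins, the pair that marks myoepithelial cells did not pass the test. Krt5 had log2 signals of 13.93, 13.74, 14.02 and 13.51 in WT1 to WT4 and of 13.89, 13.65, 13.60 and 13.22 in KO1 to KO4. All but 1 of the KO arrays lay within the range of the WT arrays. The difference of Krt5 was -0.21 (SE 0.17, 95% interval -0.60 to 0.17, adjusted p = 0.394 by limma).

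Krt14 had log2 signals of 12.53, 11.60, 12.31 and 11.44 in WT1 to WT4 and of 11.91, 11.88, 11.93 and 11.14 in KO1 to KO4. Again KO4 alone lay below the WT range. The difference was -0.26 (SE 0.29, 95% interval -0.91 to 0.39, adjusted p = 0.548 by limma). Both intervals include 0. Krt5 relative to Krt14 differed by 0.04 (SE 0.19, exact permutation p = 0.914, also 0.914 after adjustment), a value whose sign turned under 75th percentile scaling (-0.06), without WT1 (-0.10) and without KO4 (-0.02).

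Krt15 and Krt17, the other 2 basal chains, fell. In WT1 to WT4 the log2 signal of Krt15 was 13.68, 13.16, 13.38 and 11.61, and in KO1 to KO4 it was 8.54, 12.08, 10.02 and 10.33. KO1 was the lowest by more than a unit, and KO2 lay above WT4, so the genotypes overlapped by 1 array on each side. The mean fell from 12.96 ± 0.92 to 10.24 ± 1.45 (SD, n = 4), or 6.56-fold (log2 difference -2.71, SE 0.73, 95% interval -4.37 to -1.06, adjusted p = 0.0387 by limma). The difference stayed between -3.33 and -2.15 when each array was left out in turn, and the adjusted p stayed under 0.05 only without WT4 or KO2 (0.0349 and 0.0305). Without WT1, WT2, WT3, KO1, KO3 or KO4 it was 0.0595 to 0.0995, and with no filter on dim probes 0.0610.

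For Krt17 the log2 signal was 12.69, 12.31, 13.02 and 11.62 in WT1 to WT4 and 11.35, 11.47, 11.39 and 10.55 in KO1 to KO4. Every KO array lay below every WT array, with 12.9% of all genes tested separated in that direction. The mean fell from 12.41 ± 0.60 to 11.19 ± 0.43 (SD, n = 4), or 2.33-fold (log2 difference -1.22, SE 0.32, adjusted p = 0.0369 by limma). Leaving out WT4 gave 0.0226, and leaving out any of WT1, WT2, WT3 and the 4 KO arrays gave 0.0582 to 0.0851, with differences between -1.48 and -1.01. It was 0.0572 with no filter on dim probes.

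The 2 basal keratins that fell did so by more than the basal pair, as contrasts chosen after their values were seen and given without a test. Krt17 relative to Krt14 was -0.28 to 0.27 on the WT arrays and -1.03 to -0.85 on the KO arrays, a mean difference of -0.96 with an SD of 0.08 among the KO arrays. Relative to Krt5 the difference of Krt17 was -1.01, again with no overlap. Krt15 relative to Krt14 was lower by 2.46 on average, but from -4.36 to -0.78 on the KO arrays and down to -0.81 on the WT arrays. The SD of this ratio of Krt15 among the KO arrays was 1.53.

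The 4 type I chains of the list other than Krt18 lie close together on chromosome 11, in the order Krt15, Krt19, Krt14 and Krt17. Krt15 and Krt19 are direct neighbours among protein-coding genes. Their differences were -2.71 and 0.26, so the keratin that fell furthest lay beside one whose mean was slightly higher. Krt14 has 1 protein-coding gene between it and each of Krt19 and Krt17. Of the type II chains, Krt7, Krt5 and Krt8 lie on chromosome 15 in this order, with 12 and 10 protein-coding genes between them.

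Taken per array, the luminal keratins had a mean above their WT level and the basal keratins a mean below theirs on every KO array. These means describe the listed keratins, and the share of the layers was not tested. Among markers that are not keratins, the median difference was 0.13 over the luminal and -0.01 over the basal ones. With each gene set to 0 at its WT mean, the mean of the luminal keratins was 0.56, -0.52, 0.29 and -0.33 in WT1 to WT4 and 0.85, 0.60, 0.99 and 0.76 in KO1 to KO4. That of the basal keratins was 0.42, -0.08, 0.40 and -0.74 in WT1 to WT4 and -1.36, -0.52, -1.05 and -1.48 in KO1 to KO4. All KO arrays lay above all WT arrays in the luminal mean, while in the basal mean WT4 lay below KO2.

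**Figure D2:**
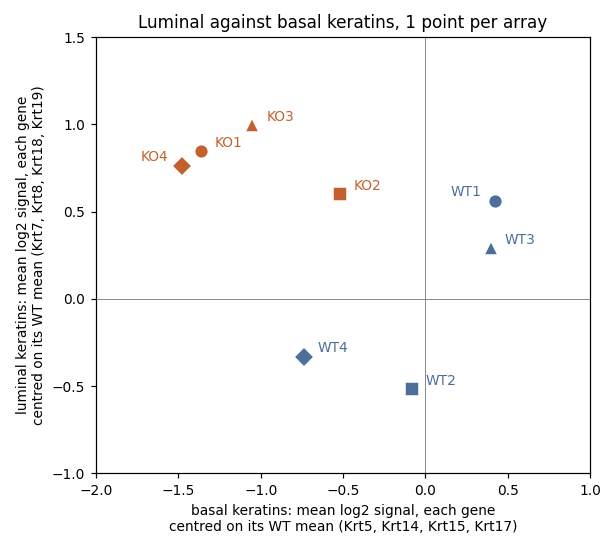
Mean log2 signal of the 4 luminal keratins (y axis) against that of the 4 basal keratins (x axis), each gene set to 0 at its WT mean, 1 point per array (replicate number as the symbol). WT arrays run from low in both to high in both, from WT2 and WT4 to WT1 and WT3, and the KO arrays lie in the upper left, with luminal means of 0.60 to 0.99 and basal means of -1.48 to -0.52.

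The luminal minus the basal mean was 0.14, -0.44, -0.11 and 0.40 in WT1 to WT4 and 2.21, 1.12, 2.04 and 2.24 in KO1 to KO4. The smallest KO value, that of KO2, was above the largest WT value, that of WT4. The difference between genotypes was 1.90 on the log2 scale (SD 0.36 in WT and 0.53 in KO), and it lay between 1.76 and 2.16 with other scalings, other sources of the values and each array left out. It has no p, since the genes were picked as a set. Krt15 and Krt7 contribute most to it. For these 2 markers of the study, Krt8 relative to Krt14 was -0.29 to 0.19 on the WT and 0.32 to 1.28 on the KO arrays, a difference of 0.72 (SE 0.23, exact permutation p = 0.0286, the smallest possible, and 0.114 after adjustment over 4 ratios).

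WT glands differed among themselves in a way that most of these keratins shared. In 7 of the 8 keratins, all but Krt19, both WT1 and WT3 lay above both WT2 and WT4, a pattern shown by 25.9% of all genes tested. It was noticed in the values and not tested. In the KO glands no split of the 4 arrays was shared by as many of the keratins. KO1 and KO3 both lay above KO2 and KO4 in Krt7, Krt8 and Krt14, and not in the others. Krt7, Krt8 and Krt14 were highest in KO3, Krt18, Krt15 and Krt17 in KO2, Krt5 in KO1 and Krt19 in KO4. KO4 was the lowest in Krt18, Krt5, Krt14 and Krt17. The KO orders were not counted over all genes here.

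Keratins outside the list were mostly dim. The gene table lists 46 of them, of which 34 had a probe, 18 could be tested and 7 (Krt2, Krt4, Krt12, Krt25, Krt33a, Krt76 and Krt90) reached background level only, on all 8 arrays. Of the 18, 5 passed the background filter through the WT arrays alone and 1 through the KO arrays alone, so a count over them describes only those that could be tested. Of these 1 rose and 3 fell, against 7.53% and 8.94% of all genes, and hair keratins were among both. Krt32, a type I hair keratin, fell, with log2 signals of 6.21 to 6.45 in WT and 3.93, 5.58, 4.85 and 4.94 in KO1 to KO4 (difference -1.50, SE 0.30, adjusted p = 0.0188 by limma). With normexp, another background correction, the difference of Krt32 was -0.60. Krt33b, another type I hair keratin, fell by 0.81 (SE 0.17, adjusted p = 0.0214), and Krt88 fell by 1.31 (SE 0.28, adjusted p = 0.0226), with differences of -0.46 and -0.39 under normexp.

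Krt36, also a type I hair keratin, rose by 0.74 (SE 0.14, adjusted p = 0.0163 by limma), from 4.52 to 4.74 on the WT arrays to 5.05 to 5.68 on the KO arrays, near the lowest signals well above background, and with normexp the difference was 0.20 and the adjusted p 0.157. Krt32 and Krt36 did not pass without KO3 (0.0556 and 0.0526), Krt33b without WT2, KO1 or KO3 (0.0532 to 0.0625), and Krt88 without WT2, WT3, KO1, KO2 or KO3 (0.0509 to 0.0662) or with normexp (0.0674). Krt71, a type II chain of the inner root sheath of hair, was at 5.20 to 5.42 in WT and at 7.57, 5.88, 6.54 and 5.49 in KO1 to KO4 (difference 1.11, adjusted p = 0.0808). Its KO arrays all lay above its WT arrays.

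Krt84, a type II hair keratin, differed by -0.90 (adjusted p = 0.0640 by limma), and Krt6a, a type II chain that pairs with Krt17 and Krt16 in hair follicles and wounds, by -0.93 (adjusted p = 0.175). Both were well above background on 4 WT but only 2 KO arrays, so these are differences against arrays partly at background, and under normexp they were -0.34 and -0.13. Krt10, the chain of suprabasal epidermis, was well above background on 3 KO arrays and differed by -0.50 (adjusted p = 0.106). Krt16, a type I stress keratin like Krt17, differed by 0.13 (adjusted p = 0.485).

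**Figure D3:**
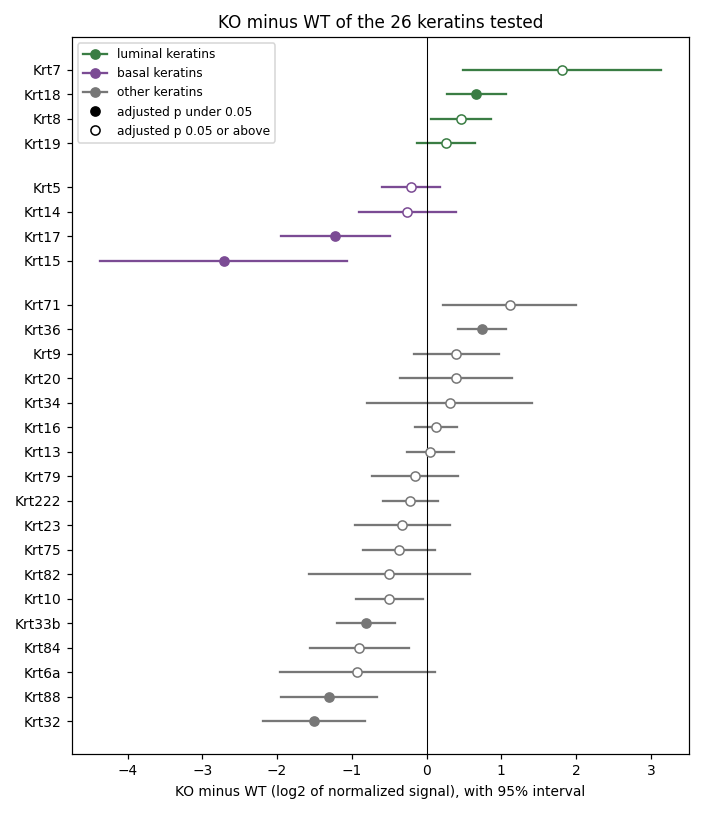
KO minus WT difference in log2 signal (x axis) with its 95% interval for each of the 26 keratins tested (y axis), grouped into luminal, basal and other keratins. Filled points have an adjusted p under 0.05 by limma. Luminal keratins lie to the right of 0 and basal ones to the left, with Krt15 at -2.71 and Krt7 at 1.81 as the ends, and the other keratins lie between -1.50 and 1.11.

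Markers of skin were read beside Krt15, Krt17 and the hair keratins. Of 9 epidermis markers 4 could be tested, and of these Cdsn and Krt10 entered only through the WT arrays, where they were higher, so no count over the 4 is drawn on. Cdsn, a protein of cornified cell junctions, fell, with 5.76 to 6.11 on the WT and 3.90 to 5.28 on the KO arrays (difference -1.50, SE 0.28, adjusted p = 0.0162 by limma). It was well above background on 3 of the KO arrays, and under normexp its difference was -0.62. Lor, a protein of the cornified envelope, had 6.70, 6.78, 6.34 and 6.84 in WT1 to WT4 and 4.86, 6.47, 5.15 and 5.81 in KO1 to KO4 (difference -1.09, adjusted p = 0.0524, or 0.0355 with replicate numbers as a block).

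The summed signal of the tested epidermis markers, led by Sbsn (difference -0.63, adjusted p = 0.501 by limma), was 7501 to 25258 on the WT and 2781 to 20566 on the KO arrays, and the ranges overlapped. Their mean log2 signal, in which each gene counts alike, was 7.59 to 7.91 on the WT and 6.73 to 6.99 on the KO arrays, without overlap. That mean includes Cdsn and Krt10, which entered only through the WT arrays. Ivl, Dsg1a and Krt2, which also mark epidermis, were not well above background on any array. Among the KO arrays Krt15, Krt32 and Lor shared the order KO2, KO4, KO3, KO1 from high to low, as did 4.60% of all genes tested. Krt17, Krt33b, Krt88, Krt36, Cdsn, Sbsn and Krt10, looked at beside them, had other orders, and the match was not tested. The part of skin in the differences of Krt15 and Krt17 was not tested.

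Of the genes listed as keratin partners 12 of 16 tested had a higher mean in KO glands, as did 6731 of all 14135 genes. Of 17 genes fixed as keratin partners 16 were tested, 4 rose, beside 7.53% of all genes, none fell, and the median difference was 0.25. Ppl, a plakin that ties filaments to the cell border, had 9.44 to 10.02 on the WT and 10.44 to 10.83 on the KO arrays (difference 0.95, SE 0.15, adjusted p = 0.0106 by limma). The desmosomal plakophilin Pkp3 rose by 0.91 (SE 0.17, adjusted p = 0.0175), Fam83h, which organises keratin filaments, by 0.71 (SE 0.13, adjusted p = 0.0157) and the hemidesmosomal integrin Itgb4 by 0.99 (SE 0.25, adjusted p = 0.0339). Evpl, the plakin partner of Ppl, had a difference of 1.06 (adjusted p = 0.0536), with all KO arrays above all WT arrays.

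Desmoplakin (Dsp), which anchors keratin filaments in the desmosome, differed by -0.08 (adjusted p = 0.654 by limma), and plakoglobin (Jup) by 0.20 (adjusted p = 0.273). The summed signal of the partners was higher on every KO than on any WT array. Ppl passed with every array left out. Fam83h did not pass without KO3 (0.0530), Pkp3 without KO1 or KO3 (0.0505 to 0.0555), and Itgb4 passed only without WT1 (0.0564 to 0.0921 without any other array). Of 15 other intermediate filament genes 8 were tested and none passed by limma, or by the methods' t-test after adjustment. At an unadjusted p under 0.05 by limma there were 2, against 5135 of all 14135 genes tested. Nes, with a difference of -0.52 and an adjusted p of 0.0602, passed with replicate numbers as a block (0.0269), without WT1 (0.0484) and without KO4 (0.0249). Vim, the filament of stromal cells, differed by 0.10 (adjusted p = 0.681).

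**Figure D4:**
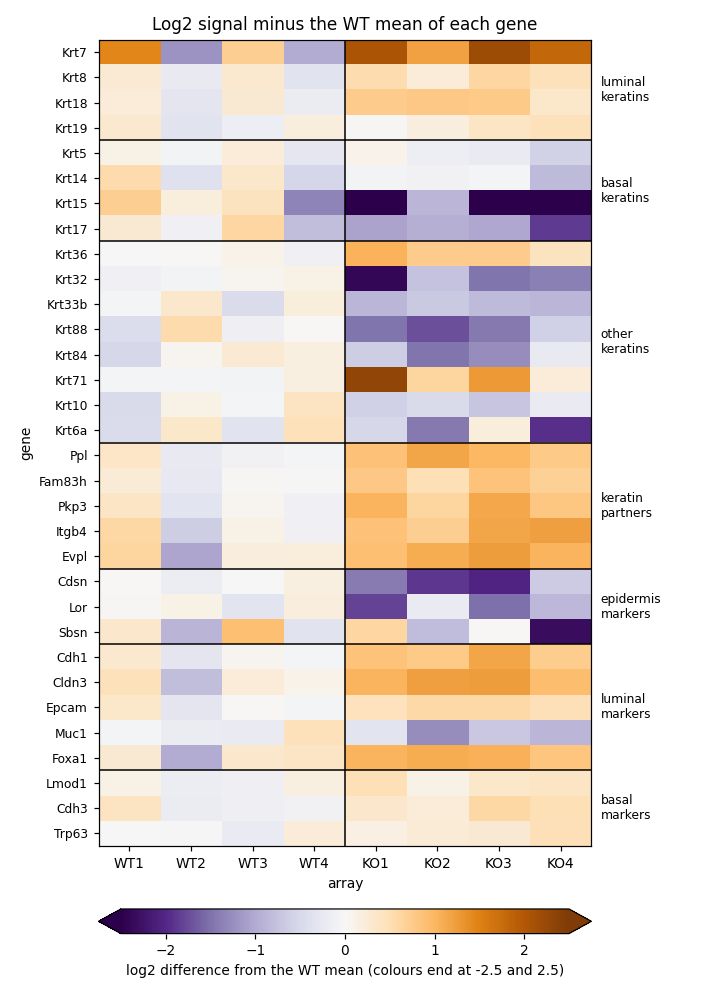
Log2 signal minus the WT mean of the gene (colour, ending at -2.5 and 2.5) on the 8 arrays (x axis) for the 8 keratins and for the other keratins, keratin partners, epidermis markers, luminal markers and basal markers with the smallest p (y axis, a gene of 2 lists shown once). The partners and most luminal markers are orange on all 4 KO arrays, and Krt15, Krt17, Krt32 and Cdsn are purple on all 4.

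Luminal markers that are not keratins moved in both directions. Of 15 fixed in the list 13 were tested, 4 rose and 1 fell, with a median of 0.13, where 7.53% and 8.94% of all genes did so. Cdh1, the cadherin of epithelial junctions, rose by 0.88 (SE 0.15, adjusted p = 0.0143 by limma), the claudin Cldn3 by 1.11 (SE 0.25, adjusted p = 0.0255), Epcam by 0.52 (SE 0.14, adjusted p = 0.0403) and the transcription factor Foxa1 by 1.00 (SE 0.29, adjusted p = 0.0490). Muc1, the mucin of the luminal surface, fell by 0.78 (SE 0.22, adjusted p = 0.0466). Elf5, the factor of alveolar cells, differed by -0.35 (adjusted p = 0.107) and Cldn7 by 0.09 (adjusted p = 0.775).

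Cdh1 passed with every array left out. Cldn3 was lost without KO1, KO2 or KO3 (0.0597 to 0.0734), Epcam without any array but WT1 (0.0601 to 0.106), Foxa1 without WT3, WT4 or any KO array (0.0544 to 0.113) and Muc1 without any array but KO1 (0.0599 to 0.0984). With replicate numbers as a block, Epcam and Foxa1 had adjusted p-values of 0.0598 and 0.0568. Of the 8 milk protein genes, the main product of luminal cells, none passed by limma and none passed the methods' t-test. None had an unadjusted p under 0.05 by limma, against 5135 of all 14135 genes tested. The median difference of the milk protein genes was -0.003, and the lowest p was that of Lalba (difference -0.45, adjusted p = 0.197, or 0.0444 with replicate numbers as a block). The brightest of them are held to the top ranks by quantile normalization and could differ little. Wap was at 18.475 on KO1, KO3 and KO4 and at 18.4426 on WT2, WT3 and KO2. With 75th percentile scaling, which does not set values by rank, none passed by limma either.

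Of the basal markers that are not keratins none fell. All 14 were tested and Itgb4 alone rose, where 7.53% of all genes rose and 8.94% fell. Itgb4 is also among the keratin partners counted above. The median difference was -0.01. The smooth muscle actin Acta2, which defines the contractile myoepithelium, differed by 0.07 (adjusted p = 0.854 by limma), Myh11 by -0.09 (adjusted p = 0.775), Cnn1 by -0.27 (adjusted p = 0.392) and the basal factor Trp63 by 0.29 (adjusted p = 0.132). The summed signal of this list was 144431 to 219496 on the WT and 133766 to 210442 on the KO arrays, and the ranges overlapped.

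Among markers of other cell types of the gland 5 genes passed the test, in lists of 6 to 9 tested genes, while 16.5% of all genes did. The summed signal of 9 adipocyte markers, in which the brightest genes weigh most, was 350977 to 485885 on the WT and 492084 to 672755 on the KO arrays without overlap. Their mean log2 signal did overlap, at 13.31 to 13.92 on the WT and 13.79 to 14.03 on the KO arrays. Of these markers 2 rose (Cfd by 0.68, adjusted p = 0.0268 by limma, and Plin1 by 0.71, adjusted p = 0.0403). Of 8 fibroblast markers all had a higher KO mean and Dcn rose, by 0.50 (adjusted p = 0.0257). Of 9 leukocyte markers Cd3e, a T cell gene, fell by 0.60 (adjusted p = 0.0369), and of 6 tested muscle markers Tnnt3 fell by 1.28 (adjusted p = 0.0367, or 0.0536 with replicate numbers as a block). The other 5 muscle markers had a higher KO mean, and the median of the 6 was 0.59. Myh1, with the largest difference (2.51, adjusted p = 0.112 by limma), was well above background on only 3 WT arrays. It was thus tested through the KO arrays alone, where it was higher, and the count and the median include it. Of 8 endothelial markers none passed by limma or by the methods' t-test. At an unadjusted p under 0.05 by limma there was 1 (Kdr, difference -0.47, adjusted p = 0.0908), against 5135 of all 14135 genes tested. All 5 of these calls were lost when single arrays were left out, Cfd and Dcn without WT2, WT3, KO1, KO2 or KO3, Plin1 without any array but WT4, Cd3e without any but WT1 or KO4, and Tnnt3 without any but WT1 or KO3. Cfd and Dcn were also lost with 75th percentile scaling (0.0537 and 0.0600), and Plin1, Cd3e and Tnnt3 with no filter on dim probes (0.0600, 0.0536 and 0.0570). The part of these cell types in the keratin differences was not tested.

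The genes whose log2 signal ran closest to that of the marker keratins over the 8 arrays were found by the root mean square difference after centring each gene on its mean. For Krt8 they were Snx12 (0.06), R3hcc1 (0.07) and D11Wsu47e (0.08), and for Krt18 Cnpy2 (0.07), Bbs4 (0.08) and Snx21 (0.09). For Krt5 they were Glmp (0.07), Ppp1r18 (0.08) and Eri3 (0.09), and for Krt14 Tppp (0.09), Enc1 (0.14) and Gem (0.15). The median over all genes tested was 0.41, 0.47, 0.36 and 0.49 for the same keratins. The partners were not each other's closest genes by this measure, as Krt18 ranked 801st for Krt8 at a distance of 0.21 (Krt8 had a closer rank for Krt18), and Krt5 ranked 62nd for Krt14 and Krt14 2102nd for Krt5 at 0.24.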

How the data were processed

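Intensities of 8 one-colour arrays were used. Per the file headers, Agilent Feature Extraction 10.7.3.1 had subtracted background and detrended the deposited processed intensities, and the authors also deposited log2 values quantile-normalized in GeneSpring, which were used as an alternative only. Here the intensities were taken to log2 and quantile-normalized between arrays, spots marked as outliers were dropped, and spots of a probe were averaged. Probes were kept if well above background on all 4 arrays of either genotype (27732 of 41174), and each of 14135 genes was represented by its brightest probe. Genotypes were compared with limma 3.58.1 in R 4.3.3, with Benjamini-Hochberg adjustment over all genes, which was tested on simulated data. Ratios of keratins were compared by exact permutation.

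The keratins and gene lists were chosen with earlier results of these data known. Genes named are the 8 keratins, Zbtb7b, the 8 other keratins and up to 4 genes of each list with the smallest p, every gene called, and the 3 genes closest to each of 4 keratins. Krt16, Dsp, Jup, Vim, Elf5, Cldn7, Acta2, Myh11 and Cnn1 fall outside this rule and were named after their values were seen. Alternatives were 75th percentile scaling, normexp with an offset of 50, no filter, the authors' table, the mean of a gene's probes, the replicate number as a block, the Student test of the methods and each array left out. The normexp alternative used median spot intensities, since the files used here hold no mean ones. For Zbtb7b the fold is a limit, the WT mean against the mean over KO arrays of the lowest signal well above background. Deviations from the genotype means correlated between same-numbered WT and KO arrays at r = 0.22, 0.16, 0.30 and 0.28. The mean of -0.08 for different numbers is tied to these by the centring within genotypes and is no separate contrast. The numbers were taken to pair the samples in the counts of pairs and the block alternative, while the main tests used no pairing. What a number shares is not given in the sources used here. Probe sequences were not used here, so binding of a probe to a related keratin was not tested. The number of arrays limits the precision.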

Additional observations from a re-analysis of the deposited data

Results flagged for a closer look

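The groups of 4 arrays looked at covered 52 genes, the keratin ratios, and the luminal mean, the basal mean and their difference. In 7 of these 118 groups 1 array stood apart from the other 3 by Dixon's 95% criterion, which chance does in about 5% of groups. Of these 7, 3 were in KO4 and in listed keratins. Krt18 was 16.58 in KO4 against 16.99 to 17.02 on the other KO arrays, Krt14 was 11.14 against 11.88 to 11.93, and Krt17 was 10.55 against 11.35 to 11.47. In each the value was the lowest of the KO arrays. Without KO4 the difference of Krt17 was -1.01, with an adjusted p of 0.0588 by limma. Enc1, a gene close to Krt14 in its course over the arrays, was also low in KO4, with 9.32 against 9.91 to 10.02.

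On the WT arrays Krt71 was 5.42 in WT4 against 5.20 to 5.22, Foxa1 was 4.88 in WT2 against 6.15 to 6.25, and Cdh3 was 6.76 in WT1 against 6.17 to 6.27. Without WT1 the difference of Cdh3 was 0.54, with an adjusted p of 0.0244 by limma, against 0.41 and 0.0992 with all arrays.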

How the results depend on the processing

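None of the 120 values of the 8 keratins under 15 alternatives changed sign, but how many passed depended on the setting. All 3 were lost with no filter on dim probes and under the methods' t-test, and 0 to 2 passed when an array was left out. With the replicate number as a block 4 passed, Krt7 in addition, of 2764 genes in all. Beyond the gains and losses given beside the results, this block added Krt10 (adjusted p = 0.0474) and D11Wsu47e (0.0289). For ratios, pairs allow no exact p under 0.125. The genes called among all tested were 1389 under the methods' t-test and 516 to 3075 with an array left out, against 2329. Those called in the lists were 9 and 4 to 24, against 19. Krt5 relative to Krt14 was -0.0624 with 75th percentile scaling and -0.0997 to 0.145 with an array left out. Of the genes close to Krt14, with an array left out, Enc1 ran from -0.241 to 0.0638, Gem from -0.308 to 0.124 and Tppp from -0.380 to 0.0136. Leaving aside the total counts of calls, but with the keratins and all other named genes, lists and ratios, 779 values of 1025 kept their direction and side of the threshold or their size, 145 no longer passed, 19 passed in addition, 73 moved further and 9 reversed. Scalings moved the median of all genes by less than 0.1. Under 75th percentile scaling, though, every luminal keratin had a smaller difference and every basal one a larger drop. Krt19 went from 0.26 to 0.10 and Krt5 from -0.21 to -0.36. Dim keratins (Krt32, Krt33b, Krt36, Krt6a, Krt84, Krt88) had smaller differences under normexp.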
